A study of Rattus norvegicus with 9 samples.

Results

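The acid-sensing ion channel genes Asic1, Asic2, Asic3 and Asic4 and the mechanosensitive channel genes Piezo1 and Piezo2 were followed through RNA-Seq libraries of rat dorsal root ganglion (DRG), the ganglion that holds the cell bodies of primary sensory neurons. The 6 genes were picked by symbol from a table of 20194 genes, and all 6 were present. An FPKM (fragments per kilobase of transcript and per mapped fragments of the library) of at least 1 in at least 1 of the 9 libraries was required before a gene was tested, and 14305 genes passed, among them 5 of the 6. Asic4 stayed below that limit and was taken from a fit of every gene with at least 1 count. Of 13 further proton-sensing or related genes looked up, 12 were matched. Asic5 is not analysed here.

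Male Sprague Dawley rats of 3 groups gave 3 libraries each, from DRG tissue. Sham rats had the operation without the injury. SNI rats had spared nerve injury, in which branches of the sciatic nerve are cut and one is left intact, and served as a model of neuropathic pain. SNI_G15 rats had the same injury and received G15, an antagonist of the G protein-coupled oestrogen receptor GPER, through an intrathecal catheter. The labels place the catheter at day 5 after SNI, the drug at 24 h and the solvent at 2% DMSO. They title sham and SNI libraries as the controls of G15 but do not say whether these rats received solvent, and they give no age. The study's methods call the rats adult, and its methods and figure legends name other percentages of DMSO than the labels. The methods name the ganglia on the injured side, so cut and spared neurons are mixed in 1 sample. The labels' extraction text names macrophages and exosomes, whereas neuronal markers were abundant in every library: the summed FPKM of 10 general neuronal genes lay between 6819 and 7281 across the 9 libraries. Total estimated counts lay between 18484557 and 18756736. All 8 genes of a list of nerve injury markers were higher in SNI than in sham (edgeR adjusted p below 0.05), as were 23.3% of all genes tested. All 10 macrophage markers were measured above 0 in every library.

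The acid-sensing ion channels are trimers of subunits that open to sodium when extracellular pH falls, as in inflamed or ischaemic tissue. Asic1 and Asic3 encode proton-gated subunits, Asic3 being prominent in sensory neurons that supply muscle, heart and skin, while Asic2 subunits mostly modify the channels they join and Asic4 forms no proton-gated channel alone. The Piezo proteins open when the membrane is stretched: Piezo2 is the main transducer of light touch and proprioception in sensory neurons, and Piezo1 is best known in vascular, blood and connective tissue cells.

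Asic2 is shown with its promoter sequences first, because it is the 1 gene of the 6 with 2 annotated starts in the RefSeq table. RefSeq windows in rat build GRCr8 were found for 4 of the 6 genes, 5 windows in all; the table does not pair a window with a transcript. Each line gives the 250 bases before a start of Asic2 on chromosome 10, minus strand, written 5′ to 3′. Capitals mark the letters of the TATA box, here TATAAA, and of the GC box, here GGGCGG. Both strands were searched, so the reverse complement TTTATA of the former, and CCGCCC of the latter, are in capitals too.
Asic2 chr10:67438238-67438487: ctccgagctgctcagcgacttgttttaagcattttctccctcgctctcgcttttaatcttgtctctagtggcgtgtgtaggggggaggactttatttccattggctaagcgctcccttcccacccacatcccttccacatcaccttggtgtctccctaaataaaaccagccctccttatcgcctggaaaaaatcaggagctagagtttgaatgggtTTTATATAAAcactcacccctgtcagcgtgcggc
Asic2 chr10:66636062-66636311: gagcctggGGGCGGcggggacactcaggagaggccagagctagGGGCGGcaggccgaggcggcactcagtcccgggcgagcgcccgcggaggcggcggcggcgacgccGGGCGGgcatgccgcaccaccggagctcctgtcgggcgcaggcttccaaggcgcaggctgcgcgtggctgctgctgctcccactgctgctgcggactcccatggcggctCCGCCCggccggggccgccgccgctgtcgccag
The first window held a TATAAA match from -30 to -25 bases relative to the start and an overlapping match on the other strand from -34 to -29, with a GC content of 49.6% and 9 CpG. The second held 4 GC box matches and none of the TATA box, with a GC content of 78.8% and 33 CpG, more than 96.4% of the windows compared. Of 33465 windows of the same length, 12.9% held the TATA box letters and 30.5% the GC box letters, and the median window had 5 CpG. The Asic1 window held 2 GC box matches and 22 CpG, and the Asic3 window held neither motif and 4 CpG.

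The order of levels was the same in the 3 groups: Asic3, Asic1, Piezo2, Asic2, Piezo1 and Asic4, from highest to lowest FPKM. No 2 neighbours in this order overlapped in any group. In sham libraries mean FPKM was 109.5 ± 5.40 for Asic3, 67.1 ± 1.70 for Asic1, 39.3 ± 2.79 for Piezo2, 9.70 ± 0.997 for Asic2, 1.47 ± 0.127 for Piezo1 and 0.42 ± 0.125 for Asic4 (SD, n = 3). Asic3 thus exceeded 94.5% of the tested genes in sham, and Piezo1 exceeded 12.2%. The 6 genes kept these places when the deposited TPM, another unit that corrects for length and depth, was used.

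**Figure D1:**
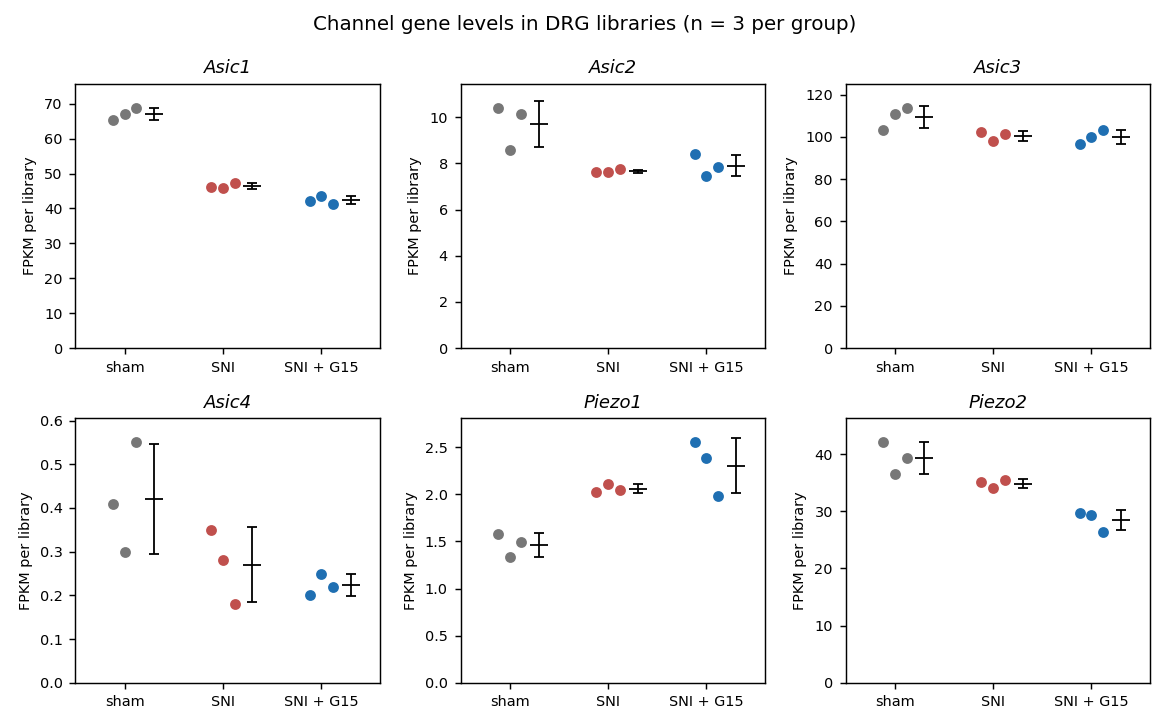
FPKM of each of the 6 genes (vertical axes, each from 0) in 3 sham, 3 SNI and 3 SNI + G15 libraries (horizontal axes), with 1 point per library and the mean ± SD beside the points. All SNI points lie below all sham points for Asic1, Asic2, Asic3 and Piezo2 and above them for Piezo1, and the groups overlap for Asic4.

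SNI against sham asks how the injury goes with the level of these channels. Asic1, Asic2, Asic3 and Piezo2 were lower and Piezo1 was higher in SNI. By edgeR's quasi-likelihood test on estimated counts, with Benjamini-Hochberg adjustment over all genes tested, 4 of the 5 tested genes were called lower and 1 higher at an adjusted p below 0.05. Among all genes tested, 22.4% were called lower and 23.3% higher. The median log2 fold change of the 5 was -0.20, beside 0.001 for all genes.

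Asic1 showed the clearest separation. Its FPKM was 65.46, 66.95 and 68.85 in sham, 46.08, 45.76 and 47.29 in SNI and 42.26, 43.54 and 41.21 in SNI_G15. The 3 groups did not overlap, with sham highest and SNI_G15 lowest. Between SNI and sham the log2 fold change was -0.55 (SE 0.037, edgeR adjusted p = 8.37e-07), so the level fell by 31.9%, and only 4.88% of the tested genes had a lower log2 fold change.

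Asic2, whose product tunes the channels of the other subunits, was at a mean of 9.70 FPKM in sham beside 67.1 for Asic1. FPKM was 10.41, 8.56 and 10.13 in sham, 7.61, 7.62 and 7.74 in SNI and 8.39, 7.46 and 7.86 in SNI_G15. Every sham library was above every injured library, and the 2 injured groups overlapped. The log2 fold change of SNI against sham was -0.40 (SE 0.073, edgeR adjusted p = 0.00119).

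Asic3 changed least. FPKM was 103.43, 111.07 and 113.87 in sham, 102.25, 97.91 and 101.57 in SNI and 96.58, 100.03 and 103.36 in SNI_G15. The lowest sham library stood just above the highest SNI library, and the injured groups overlapped. The log2 fold change of SNI against sham was -0.15 (SE 0.045, edgeR adjusted p = 0.018), or 0.90-fold. This call was lost with limma-trend on log2(FPKM + 1) (adjusted p = 0.0585), without sham replicate 3 (adjusted p = 0.0621) and without SNI replicate 2 (adjusted p = 0.0801).

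Asic4 was close to the detection limit, with 15 to 27 counts per sham library, 9 to 17 in SNI and 10 to 12 in SNI_G15. FPKM was 0.41, 0.30 and 0.55 in sham, 0.35, 0.28 and 0.18 in SNI and 0.20, 0.25 and 0.22 in SNI_G15. Sham and SNI overlapped, and their log2 fold change of -0.66 (SE 0.33) was not called (edgeR adjusted p = 0.156). The 95% confidence interval ran from -1.40 to 0.07, and the value was -0.42 without sham replicate 3.

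Piezo1 moved the other way. FPKM was 1.58, 1.33 and 1.49 in sham, 2.02, 2.11 and 2.05 in SNI and 2.55, 2.38 and 1.98 in SNI_G15. All injured libraries were above all sham libraries, while SNI and SNI_G15 overlapped through SNI_G15 replicate 3. The log2 fold change of SNI against sham was 0.47 (SE 0.075, edgeR adjusted p = 0.000472), or 38.6% higher by counts.

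Piezo2 was 42.03, 36.45 and 39.37 FPKM in sham, 35.05, 33.99 and 35.42 in SNI and 29.68, 29.32 and 26.38 in SNI_G15. The groups formed 3 steps without overlap, from sham down to SNI_G15. The log2 fold change of SNI against sham was -0.20 (SE 0.048, edgeR adjusted p = 0.00532), a fall of 13.2%.

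These are bulk libraries, in which fewer cells of a type and less RNA per cell cannot be told apart. Among markers of touch and proprioceptive neurons, 6 of 10 were lower in SNI and none higher (median log2 fold change -0.22), where 22.4% of all genes were lower and 23.3% higher. Ntrk2, Runx3, Calb1 and Necab2 were not called. The summed FPKM of the 10 was 2576 to 2685 in sham and 1690 to 1832 in SNI. Most of that sum was Nefh, with means of 2177 in sham and 1408 in SNI. Of 9 tested nociceptor markers 6 were lower and 1 higher, and of 10 general neuronal markers 5 were lower and 2 higher. For cells in which Piezo1 is known, endothelial markers summed to 72.3 to 78.9 FPKM in sham and 77.2 to 78.7 in SNI, mural cell markers to 44.9 to 46.9 and 51.1 to 56.7, fibroblast markers to 479 to 490 and 460 to 462, and macrophage markers to 178 to 195 and 390 to 401. Of 9 endothelial markers 2 were called higher and 1 lower, and of 6 mural cell markers 2 were called higher. Of 7 fibroblast markers 2 were called higher and 3 lower, and of 10 macrophage markers 9 were called higher. Erythroid markers summed to 91.9 to 96.4 FPKM in sham and 304 to 313 in SNI. Glial RNA moved as well: 5 of 7 markers of myelinating Schwann cells were lower and 1 higher in SNI, their summed FPKM being 5226 to 5333 in sham and 2874 to 2928 in SNI. Of 4 satellite glial markers 2 were higher, with sums of 83.6 to 90.4 and 108.8 to 116.6 FPKM. No neuronal, endothelial, mural, fibroblast, macrophage or glial marker was at 0 in any library. The part of these cell types in the channel values was not tested.

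SNI_G15 against SNI asks what accompanied the GPER antagonist in injured rats, and it uses the same SNI libraries as the comparison with sham. Piezo2 was the 1 gene of the 5 tested that passed, and it was lower. Its log2 fold change was -0.28 (SE 0.047, edgeR adjusted p = 0.00618), a fall of 17.4%, where 7.25% of all genes tested were called lower and 7.98% higher. All 3 SNI_G15 libraries were below all SNI libraries, and the call held in every alternative run, with adjusted p between 9.64e-06 and 0.0378.

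Asic1 was again lower in all 3 SNI_G15 libraries, but its log2 fold change of -0.12 (SE 0.039) did not pass (edgeR adjusted p = 0.066, 95% confidence interval -0.21 to -0.03). Asic2 had a log2 fold change of 0.07 (95% confidence interval -0.07 to 0.21, edgeR adjusted p = 0.472) and Asic3 one of 0.01 (-0.09 to 0.12, adjusted p = 0.853). Piezo1 had a log2 fold change of 0.16 (SE 0.087, edgeR adjusted p = 0.231), which became 0.25 (adjusted p = 0.0251) without SNI_G15 replicate 3, the library that overlapped SNI. Asic4 had a log2 fold change of -0.26 (SE 0.33, edgeR adjusted p = 0.65), which was -0.048 without SNI replicate 1 and -0.48 without SNI replicate 3.

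Gene length moved with this comparison. The median log2 fold change went from 0.16 in the shortest of 5 parts to -0.11 in the longest, the tested genes being cut by effective length into parts of equal size. Both Piezo genes, with effective lengths of 8405 and 10850 bases, lie in the longest part, of which 19.3% were called in either direction. With the length trend taken out, the log2 fold change of Piezo2 shrank to -0.12 (edgeR adjusted p = 0.0372) and that of Piezo1 grew to 0.29 (adjusted p = 0.0216), past the threshold. The uncalled value of Asic1 shrank to -0.074 (edgeR adjusted p = 0.202). In SNI against sham the same medians went only from -0.03 to 0.04, and the 5 calls were kept. Fibroblast markers were higher in SNI_G15 than in SNI for 7 of 7, and markers of myelinating Schwann cells for 6 of 7. Mural cell markers were higher for 3 of 6. Lower were 5 of 5 tested erythroid markers and 2 of 4 satellite glial markers. Among all genes tested, 7.98% were called higher and 7.25% lower. Of 10 general neuronal markers 3 were lower and 1 higher. The 10 summed to 6997 to 7251 FPKM in SNI_G15 and 6819 to 7105 in SNI. Uchl1 was the largest part of that sum, at means of 3207 and 3026. Of 10 markers of touch and proprioceptive neurons 1 was lower and 1 higher. Of 9 tested nociceptor markers 2 were lower and 1 higher. Of 9 endothelial markers 2 were higher and 1 lower, and of 10 macrophage markers 2 were higher and 1 lower. The part of these cell types in the Piezo values was not tested.

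**Figure D2:**
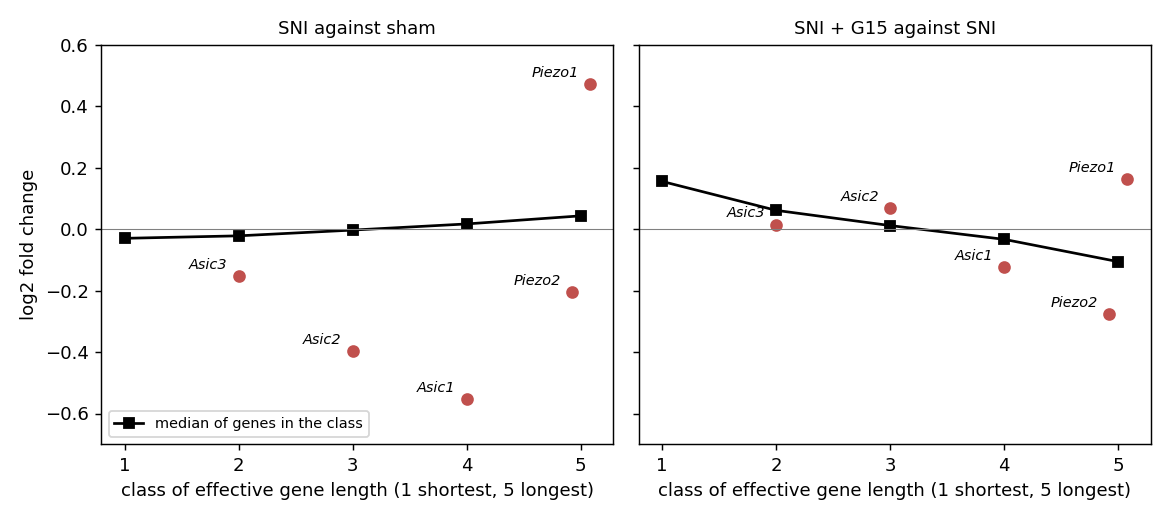
Log2 fold change (vertical axes) against the class of effective gene length (horizontal axes, 1 shortest to 5 longest) for SNI against sham (left) and SNI + G15 against SNI (right). Squares are medians of all tested genes in a class and circles are the 5 tested channel genes. The line of medians falls from 0.16 to -0.11 in the right panel, and Piezo2 lies below it there while Piezo1 lies above it.

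SNI_G15 against sham, which shares its libraries with both other comparisons, put all 6 genes past the threshold. The log2 fold changes were -0.70 for Asic1 (SE 0.049, edgeR adjusted p = 3.06e-06), -0.35 for Asic2 (SE 0.083, adjusted p = 0.00659) and -0.16 for Asic3 (SE 0.056, adjusted p = 0.0418). Piezo1 was higher at 0.61 (SE 0.10, edgeR adjusted p = 0.000875) and Piezo2 lower at -0.50 (SE 0.063, adjusted p = 0.000147). Of all genes tested, 21.9% were called lower and 21.4% higher. Gene length moved with this comparison too, the median log2 fold change going from 0.12 in the shortest part to -0.079 in the longest. With the length trend taken out, Piezo2 shrank to -0.38 (edgeR adjusted p = 1.19e-05) and Piezo1 grew to 0.71 (adjusted p = 3.31e-05). The 5 genes that passed the filter stayed called. Asic4, from the fit of all genes, had a log2 fold change of -0.95 (SE 0.31, edgeR adjusted p = 0.039) and its groups did not overlap, but with DESeq2 the adjusted p was 0.199, and leaving out any library except sham replicate 2 also ended the call. Asic3 lost its call with limma-trend (adjusted p = 0.0927) and without any of 4 libraries, namely sham replicates 2 and 3 and SNI_G15 replicates 1 and 2 (adjusted p from 0.0996 to 0.163).

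Within a library the levels of 2 genes can be set against each other without regard to depth. The ratio of Piezo2 to Piezo1 FPKM was 26.6, 27.4 and 26.4 in sham, 17.4, 16.1 and 17.3 in SNI and 11.6, 12.3 and 13.3 in SNI_G15. The 3 groups were fully separated, with means of 26.8 ± 0.524, 16.9 ± 0.697 and 12.4 ± 0.847 (SD, n = 3). The mean log2 ratio differed by -0.67 between SNI and sham and by -0.45 between SNI_G15 and SNI. An exact two-sided permutation test gave p = 0.1 for each of the 3 pairs of groups, the smallest that 3 against 3 allows, so this design cannot pass 0.05.

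The make-up of the acid-sensing channel RNA shifted from Asic1 towards Asic3. Asic1 made up 36.0% ± 0.427 of the summed FPKM of the 4 Asic genes in sham, 30.0% ± 0.400 in SNI and 28.2% ± 0.998 in SNI_G15 (SD, n = 3). Asic3 made up 58.6% ± 0.966, 64.9% ± 0.433 and 66.5% ± 1.14 in the same order. The sham libraries did not overlap the injured libraries in either share, whereas the share of Asic2 overlapped in all groups, at 5.20% ± 0.607, 4.94% ± 0.079 and 5.26% ± 0.391. Asic4 stayed under 0.3% in every library. Summed over the 4 genes, the FPKM ranged from 179.7 to 193.4 among sham, from 151.6 to 156.8 among SNI and from 147.4 to 152.7 among SNI_G15 libraries, with overlap between the injured groups and none with sham.

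**Figure D3:**
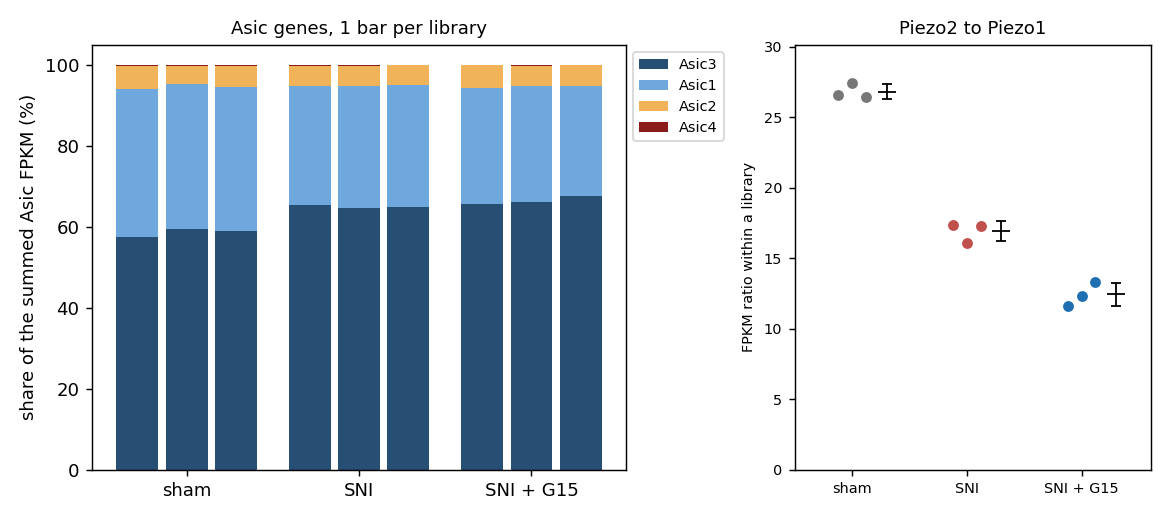
Left, the share of each Asic gene in the summed Asic FPKM (vertical axis, percent), with 1 stacked bar for each of 9 libraries by group. Right, the ratio of Piezo2 to Piezo1 FPKM within each library, with mean ± SD for n = 3. The Asic1 segment is about 36.0% in sham and 30.0% in SNI, and the mean ratio is 26.8, 16.9 and 12.4 across the groups.

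The gene values are sums over transcripts, which were tested one by one as well. They come from the same libraries and are no independent evidence. Records that begin with NM are curated and those that begin with XM are predicted models. The 6 genes had 27 transcripts in the table, and 19 reached an FPKM of 1 in at least 1 library and were tested. In SNI against sham 3 of the 19 were called, all lower, where 10.3% of 25998 transcripts were called in either direction.

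Asic1 NM_024154.2 carried most of the fall. Its FPKM was 31.24, 33.74 and 32.94 in sham, 15.94, 16.37 and 15.33 in SNI and 11.24, 9.09 and 12.95 in SNI_G15. The groups did not overlap, and SNI was lower than sham by a log2 fold change of -1.06 (SE 0.043, edgeR adjusted p = 0.000433). The predicted model XM_006257378.3 stood at 22.87, 25.89 and 26.81 FPKM in sham, 22.96, 25.84 and 24.55 in SNI and 24.04, 22.34 and 20.11 in SNI_G15. These ranges overlapped, and the log2 fold change of SNI against sham was -0.07 (95% confidence interval -0.26 to 0.13, edgeR adjusted p = 0.717). NM_024154.2 made up 48.7% ± 1.51 of the Asic1 FPKM among sham libraries, 34.3% ± 1.71 among SNI libraries and 26.3% ± 5.28 with G15 (SD, n = 3). The share of XM_006257378.3 was 37.5% ± 2.24, 52.7% ± 3.40 and 52.3% ± 4.15 in that order.

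The Asic1 model XM_017595126.1 was at 3.13 FPKM in sham, 1.88 in SNI and 1.31 in SNI_G15 on average, without overlap between groups. Its log2 fold change of -0.76 in SNI against sham was at the edge of the threshold (edgeR adjusted p = 0.0473) and lost the call without any 1 library. Of the other 4 Asic1 models, 3 were at 0 in 5 or 7 of the 9 libraries, so their folds are not given.

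Asic2 has the 2 transcripts NM_001034014.1 and NM_012892.2. The first was at 7.63, 6.73 and 7.20 FPKM in sham, 4.83, 5.42 and 5.10 in SNI and 5.64, 5.22 and 5.63 in SNI_G15. Sham stood above both injured groups, with a log2 fold change of -0.51 for SNI against sham (SE 0.090, edgeR adjusted p = 0.026), a call that was lost when any 1 library was left out (adjusted p from 0.0516 to 0.0912). NM_012892.2 was at 2.79, 1.83 and 2.93 FPKM in sham, 2.79, 2.20 and 2.63 in SNI and 2.75, 2.24 and 2.22 in SNI_G15. These groups overlapped throughout, with a log2 fold change of -0.01 (95% confidence interval -0.66 to 0.65, edgeR adjusted p = 0.998), an interval wide enough to hold the change of the other transcript. The difference between the 2 transcripts was itself not tested.

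Asic3 was mostly NM_173135.1, with a share of 70.5% ± 0.686 in sham, 70.8% ± 0.888 in SNI and 69.8% ± 0.699 in SNI_G15 (SD, n = 3). Its log2 fold change of SNI against sham was -0.14 (SE 0.049, edgeR adjusted p = 0.16). The rest was split between 2 predicted models, XM_017592496.1 with 14.57 to 27.96 FPKM over the 9 libraries and XM_008762632.2 with 0 to 16.63, the former being the higher except in sham replicate 1. Piezo1 was mostly NM_001077200.2, at 1.57, 1.16 and 1.12 FPKM in sham, 1.86, 1.16 and 1.41 in SNI and 2.39, 2.19 and 1.51 in SNI_G15. Its groups overlapped and it was not called (log2 fold change 0.18, edgeR adjusted p = 0.766). Its share of the Piezo1 FPKM was 87.3% ± 12.1 in sham, 72.1% ± 18.7 in SNI and 87.5% ± 9.72 in SNI_G15. The rest lay in predicted models with means below 0.5 FPKM in every group, which were not tested. Piezo2 had 10 predicted models, 6 of them tested and none called in any comparison. Model XM_017601115.1, for example, was at 2.53, 2.27 and 11.46 FPKM in the 3 sham libraries, a wide spread within 1 group.

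In SNI_G15 against SNI none of the 19 transcripts was called by edgeR, where 0.662% of all transcripts were called; 3 had an unadjusted p below 0.05, and DESeq2 called 1. Asic1 NM_024154.2 had the log2 fold change -0.51 (SE 0.14, edgeR adjusted p = 0.214) with all SNI_G15 libraries lower, and it was the transcript that DESeq2 called (adjusted p = 0.00742). In SNI_G15 against sham 2 of the 19 were called, both lower and both of Asic1, where 10.4% of all transcripts were called. NM_024154.2 had a log2 fold change of -1.58 (edgeR adjusted p = 0.00353) and XM_017595126.1 one of -1.27 (adjusted p = 0.00472).

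**Figure D4:**
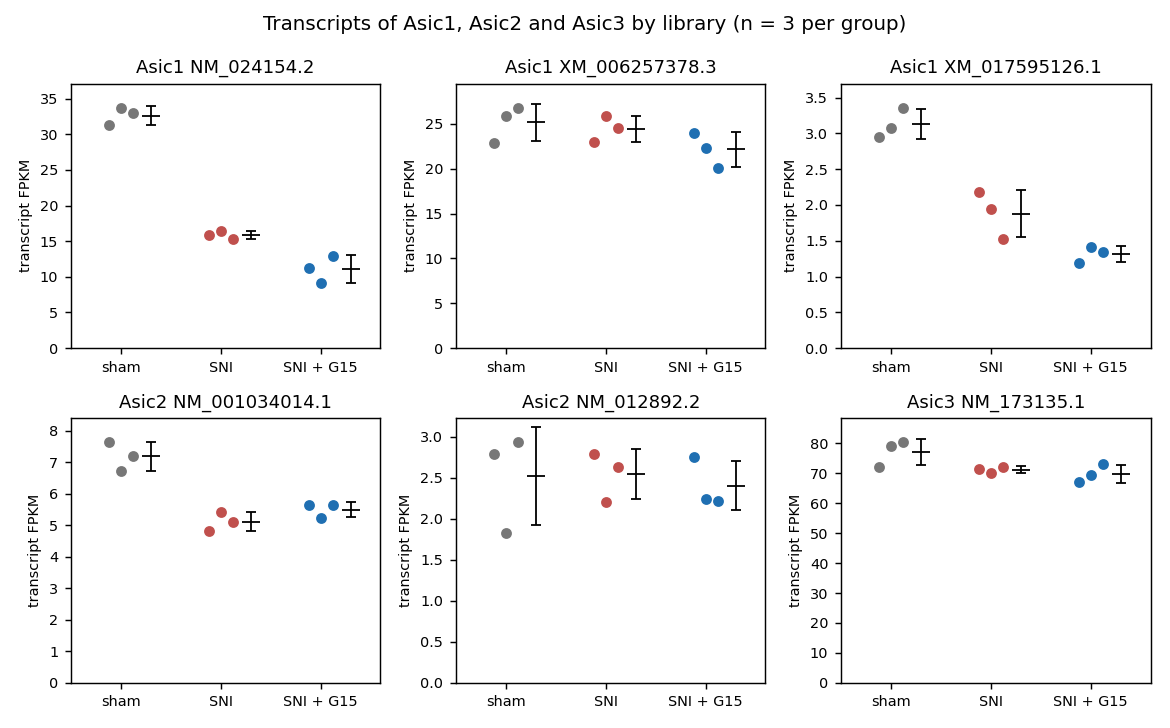
FPKM of 6 transcripts of Asic1, Asic2 and Asic3 (vertical axes from 0) in 3 sham, 3 SNI and 3 SNI + G15 libraries (horizontal axes), with 1 point per library and mean ± SD beside them. Asic1 NM_024154.2 averages 32.6 in sham, 15.9 in SNI and 11.1 in SNI + G15, whereas XM_006257378.3 stays between 20.11 and 26.81.

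Other proton-sensing genes, and genes related to the Asic family, are given next as 1 list. Sizes given after rose, fell, higher or lower from here on are on the log2 scale. Of 9 tested, 3 were higher and 2 lower in SNI against sham (median log2 fold change 0.15), beside 23.3% higher and 22.4% lower among all genes tested. Gpr65, a proton-sensing receptor of immune cells, was at 0.37 ± 0.153 FPKM in sham and 1.497 ± 0.296 in SNI, with a log2 fold change of 1.84 (edgeR adjusted p = 0.00117), and Scnn1a, an epithelial sodium channel subunit of the same superfamily as the Asic genes, rose by 0.71 (adjusted p = 0.00722). Scnn1a was at 0.56 ± 0.0458 FPKM in sham and 0.967 ± 0.0929 in SNI. Gpr65 and Scnn1a passed the filter only through injured libraries, where they were higher. Kcnk9 was at 0.703 ± 0.1 FPKM in sham and 0.35 ± 0.104 in SNI, without overlap, but stayed below the filter and was not tested. Pacc1, a proton-activated chloride channel, rose by 0.24 (edgeR adjusted p = 0.0226). Trpv1, the capsaicin receptor that protons also sensitise, fell by 0.37 on the log2 scale, from 39.9 ± 0.857 to 31.5 ± 0.429 FPKM (edgeR adjusted p = 2.69e-05), and the acid-sensitive potassium channel gene Kcnk3 fell by 0.35 (adjusted p = 0.0239). In SNI_G15 against SNI, Gpr4 was higher by 0.53 (edgeR adjusted p = 0.0195) and Trpv1 lower by a log2 fold change of -0.18 (adjusted p = 0.0262), and the other 7 did not pass, where 7.98% of all genes were higher and 7.25% lower.

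Of 13 tested mechanosensitive or related genes outside the Piezo family, 4 were higher and 4 lower in SNI (median log2 fold change 0.01), beside the same 23.3% and 22.4% of all genes. Tmem150c, whose product has been linked to slowly adapting mechanical currents, fell by 0.55 on the log2 scale (51.5 ± 0.569 to 35.9 ± 1.35 FPKM, edgeR adjusted p = 2.08e-06). It was also lower in SNI_G15 than in SNI, with a log2 fold change of -0.28 (edgeR adjusted p = 0.00476), as Piezo2 was. Pkd1 fell by 0.40 and Tmem63b, a stretch-activated channel gene, by 0.22 (edgeR adjusted p = 4e-05 and 0.000354), while its relatives Tmem63a and Tmem63c rose by 0.59 and 0.14 (adjusted p = 0.000309 and 0.006). Tmem120a and the potassium channel gene Kcnk10 rose by 0.26 and 0.39 (edgeR adjusted p = 0.0033 and 0.00671). Kcnk2, a mechanically gated potassium channel gene, was higher in SNI_G15 than in SNI by 0.23 (edgeR adjusted p = 0.0479).

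Genes for proteins that bind or modulate the 6 channels were looked up as a list of 17, of which 15 were tested. In SNI against sham 4 were higher and 5 lower (median log2 fold change -0.09), where all genes gave 23.3% and 22.4%. Stom, which encodes stomatin, an inhibitor of Asic3 currents, rose by 0.45 (14.5 ± 0.529 to 20.2 ± 0.168 FPKM, edgeR adjusted p = 4.52e-05), whereas Stoml3, which sensitises Piezo channels, was at most 0.32 FPKM and was not tested. Lin7b and Nherf1, scaffold genes, fell by 0.81 and 0.35 (edgeR adjusted p = 2.26e-05 and 0.000103). Mdfic, a Piezo auxiliary subunit gene, was higher in SNI than in sham by 0.39 (edgeR adjusted p = 0.000777) and higher again in SNI_G15 than in SNI by 0.37 (adjusted p = 0.0196). Anxa6 and Mtmr2, reported modulators of Piezo2 currents, fell in SNI by 0.23 and 0.22 (edgeR adjusted p = 0.000127 and 0.0015). S100a10, an annexin partner, rose by 0.24 in SNI and by 0.30 in SNI_G15 against SNI (edgeR adjusted p = 0.00207 and 0.0113), and the opioid precursor gene Pdyn rose by 2.50 in SNI (adjusted p = 5.79e-05). Pdyn was at 0.177 ± 0.0513 FPKM in sham and 1.05 ± 0.0757 in SNI, so it passed the filter only through injured libraries. Also in SNI_G15 against SNI, Anxa6 rose by 0.16 and Atp2a2, a calcium pump gene, fell by 0.26 (edgeR adjusted p = 0.0344 and 0.00323).

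The genes whose levels ran most like each channel gene over the 9 libraries were found by Pearson's r of log2(CPM + 1), where CPM is the count scaled to library size. They share libraries and group differences with the channel gene, so r is a description. For Asic1 they were Ache (r = 0.9974), Sptb (0.9974) and Hs3st2 (0.9961), and for Piezo2 Pik3r4 (0.996), Nedd4l (0.991) and Atp2b2 (0.988). For Piezo1 they were Ptgfrn (0.991), Slc39a14 (0.987) and Sned1 (0.984). Asic2 was closest to Ccr10 (0.980), Ptpdc1 (0.9749) and Acacb (0.966), and Asic3 to Rab11b (0.987), Gatd3a (0.977) and Hoxa5 (0.9749).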

How the data were processed

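The authors deposited FPKM, TPM and estimated counts per gene and per transcript; how the reads were aligned and counted is not given in the sources used here. FPKM is normalized for length and depth, TPM sums to the same total in each library, and the deposited estimated counts are raw and need not be whole: Asic3, Asic4 and Piezo2 were whole in 9 of 9 libraries, Asic1 and Asic2 in none. Submitters' notes name the builds GRCm38 and mm10, which are mouse builds, although gene identifiers are those of rat, so no coordinates are taken from the values. Columns named for controls were taken as sham, the group left by the other names. Sequences are RefSeq, GRCr8.

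Estimated counts were rounded and tested by edgeR 4.0.16 (TMM, quasi-likelihood) in R 4.3.3, with the libraries of the 2 groups in the fit, over 14305 genes (or 25998 transcripts) with FPKM of at least 1 in at least 1 library. According to the study's methods 3 rats of each group were sequenced, a supplementary table of animal numbers gives more, and nothing else says that libraries are separate animals, so p-values measure only the spread between libraries. DESeq2 1.42.0, limma 3.58.1, other normalizations and filters, a length offset, a replicate block and leaving out each library were alternatives. The offset of each library was a lowess trend on log2 effective length. It was fitted to each gene's log2 count minus its mean over the 9 libraries. The count test was checked on simulated counts. Replicate numbers did not pair the libraries: none of 9 correlations of same-numbered deviations exceeded 0.1. Permutation tests used scipy 1.17.1. The genes and lists were chosen with earlier results of these data known. Named genes are all 6 channels, called list members with non-overlapping groups (up to 4 per direction for SNI against sham and 3 for SNI_G15 against SNI, by adjusted p), transcripts with mean FPKM of at least 0.5 in a group, and the 3 most similar genes.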

Additional observations from a re-analysis of the deposited data

How the results depend on the processing

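Across the alternatives for single genes, 85 of 89 values for SNI against sham, 82 of 89 for SNI_G15 against SNI and 74 of 89 for SNI_G15 against sham kept direction and side of the threshold; the causes of the others were not tested. Values are log2 fold changes. In SNI against sham, Asic3 lost its call with limma-trend at a pseudocount of 1 or 0.1 (-0.12 and -0.12) and ranged from -0.19 to -0.12 when single libraries were left out. Piezo1 was 0.31 with limma-trend at a pseudocount of 1. Without single libraries, uncalled Asic4 ran from -0.88 to -0.42, and from -0.48 to -0.048 in SNI_G15 against SNI.

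In SNI_G15 against SNI, the uncalled Asic3 value turned to -0.0086 and -0.0087 with limma-trend and to -0.025 with the length offset, and ran from -0.013 to 0.043 over left-out libraries. Piezo1 passed with the length offset (0.29) and ran from 0.091 to 0.25 over left-out libraries. Between 1 and 2 of the 6 genes were called over left-out libraries, and 2 with the length offset. DESeq2 called 1 transcript.

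In SNI_G15 against sham, Asic3 lost its call with limma-trend (-0.13 and -0.13) and upper quartile scaling (-0.15) and ran from -0.20 to -0.12 over left-out libraries. Asic4 lost its call with DESeq2 (-0.95), limma-trend at 0.1 (-0.66) and the replicate block (-0.93), and ran from -1.13 to -0.70 over left-out libraries. DESeq2 called 5 transcripts rather than 2. The length offset was not run for Asic4, which was below the filter.

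Equal replicate numbers did not pair the libraries. With the replicate block, 1 transcript rather than 3 was called in SNI against sham and 0 rather than 2 in SNI_G15 against sham, and Asic2 NM_012892.2 turned to 0.015 in SNI against sham. It ended no call of the 5 tested genes. Over left-out libraries 1 to 2 transcripts were called in SNI against sham, NM_012892.2 ran from -0.19 to 0.12 and Piezo1 NM_001077200.2 from -0.027 to 0.35. Transcripts whose folds are not stated changed sign in 7 of 107, 11 of 161 and 11 of 152 alternative values of the 3 comparisons. The order of the 6 genes, the Piezo ratio and the Asic shares moved by less than 1 SD under TPM or one effective length per gene, where those apply. With 3 libraries a group and 9 to 27 counts, Asic4 is limited by depth.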
